A study of Canis lupus familiaris with 4 samples.

Results

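Tight junctions seal the space between neighbouring epithelial cells. The 9 genes described here encode proteins of that seal: the claudins CLDN1, CLDN2, CLDN3, CLDN4 and CLDN7, the membrane proteins OCLN (occludin), MARVELD2 (tricellulin) and F11R (junctional adhesion molecule A), and the scaffold protein TJP1 (zonula occludens 1). They were chosen by the gene symbol in the platform's annotation, and they are 9 of 15115 genes named by it. A total of 12 probe sets, the groups of short probes that each give 1 reading, carried these symbols. OCLN, F11R and TJP1 had 2 probe sets each and the other 6 genes had 1.

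RNA came from MDCKII cells, a dog kidney epithelial line used to study epithelial barriers, and was hybridised to 4 dog expression arrays. The arrays are labelled KD hypoxia, WT hypoxia, KD normoxia and WT normoxia, where KD and WT stand for a knockdown and the wild type of HIF1A, the oxygen-regulated subunit of the transcription factor HIF-1. All cells spent 24 h in normoxia and then 24 h in hypoxia or normoxia, and each group had 1 array. The sources used here do not say how HIF1A was knocked down, whether the cells were clones or pools, or what the oxygen level was. Fewer cells of a type and less RNA per cell cannot be told apart in such bulk samples.

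Claudins are tetraspan proteins whose extracellular loops meet those of the next cell and set which ions pass between cells. Occludin and tricellulin belong to another tetraspan family, the MARVEL proteins, and tricellulin is known for its place where the corners of several cells meet. Scaffold proteins of the zonula occludens family hold claudins and occludin at the membrane and tie them to actin. MDCKII monolayers are known as a leaky, cation-selective epithelium, a property credited to claudin-2.

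The targeted gene hardly differed by the KD label. HIF1A had an intensity of 625 on the array labelled KD hypoxia, 675 on the array labelled WT hypoxia, 3435 on the array labelled KD normoxia and 3651 on the array labelled WT normoxia. It therefore differed by the oxygen label and hardly by the genotype label, with KD minus WT differences of -0.11 in the hypoxia pair and -0.09 in the normoxia pair on the log2(intensity + 16) scale. Another HIF1A probe set, with intensities of 155.3 and 135.2 on the KD and WT normoxia arrays and 21.6 and 27.55 in hypoxia, gave 0.18 and -0.21. All directions below are those of the labels. If the arrays labelled WT hypoxia and KD normoxia were exchanged, each value given for hypoxia would become the one for KD, and the reverse.

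The 4 arrays were alike in overall brightness, with medians of 45.6 to 47.07 over 42924 probe sets and pairwise correlations of 0.982 to 0.987 of the log2 values. A probe set was taken as readable where its log2 value reached the median of all values, an intensity of 46.3, called the floor. Of 8 renal epithelial markers found, EPCAM, KRT7, KRT8, KRT18 and CDH16 lay above the floor on all 4 arrays, whereas CDH1, PAX2 and PAX8 lay below it on all 4. None of 8 fibroblast markers reached the floor on any array, FAP and THY1 being the brightest with at most 40.9 and 40.4. Of 7 endothelial markers CDH5, KDR and CLDN5 lay above it on all 4 arrays, while PECAM1, VWF, TEK and ESAM lay below it on all 4. Of 6 leukocyte markers only CD68 lay above the floor on all 4 arrays, and PTPRC and CD14 did so on 2 arrays each. The summed epithelial marker intensity was 36110 on KD hypoxia and 36040 on WT hypoxia, against 32990 on KD normoxia and 33680 on WT normoxia. Within each genotype label EPCAM, KRT7, KRT18 and CDH16 were higher on the hypoxia array, whereas KRT8 was lower. Below the floor CDH1 was also higher there, whereas PAX2 and PAX8 were lower. The summed leukocyte marker intensity was 385.4 on KD hypoxia and 385.3 on KD normoxia, against 315.2 on WT hypoxia and 340.5 on WT normoxia. CD68 alone gave 236.6 and 250.0 of the KD sums, against 183.3 and 177.3 of the WT sums. Its second probe set ran the other way, with 39.9 and 51.7 on KD against 55.3 and 64.9 on WT. Within each oxygen label CD14 was also higher on the KD array, whereas CD3E and CD79A were lower. Endothelial markers summed to 289.4 and 322.7 on the KD arrays in the same order, against 366.9 and 365.6 on the WT arrays. CDH5 gave 104.1 and 153.4 of the KD sums, against 155.0 and 178.1 of the WT sums. CLDN5 ran the other way, with 70.5 and 59.35 on KD against 57.6 and 48.1 on WT. KDR was lower on KD in hypoxia and slightly higher in normoxia. Below the floor, PECAM1, VWF and TEK were lower on the KD array within each oxygen label, and ESAM in normoxia only. Fibroblast markers, all below the floor, summed to 115.5 and 118.4 on the KD arrays, against 160.7 and 144.0 on the WT arrays. The part of these markers in the results below was not tested.

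Of the 9 tight junction genes, 8 lay above the floor on all 4 arrays and CLDN2 on none. In the 1 test that 4 arrays allow, a limma model with an oxygen and a genotype term, CLDN1 rose and CLDN3 and TJP1 fell with labelled hypoxia, and TJP1 rose with labelled KD. No gene reached a 2-fold difference in any pair of arrays. The levels are given first, claudins before the other membrane proteins and the scaffold. Brightness depends on the probes, so levels are compared between arrays and not between genes.

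CLDN1, a claudin of tight epithelia whose loss in mice opens the skin barrier, had 1 probe set. Its intensity was 668 on the array labelled KD hypoxia, 601 on WT hypoxia, 477 on KD normoxia and 372 on WT normoxia. Both hypoxia arrays were above both normoxia arrays, and within each oxygen label the KD array was above the WT array. The difference between labelled hypoxia and normoxia was 0.47 in the KD pair and 0.67 in the WT pair, and KD minus WT was 0.15 in hypoxia and 0.34 in normoxia.

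CLDN2, the claudin that forms a paracellular pore for cations and water, had intensities of 21.7, 14.4, 21.6 and 15.1 on the arrays labelled KD hypoxia, WT hypoxia, KD normoxia and WT normoxia. All 4 readings are below the floor, so no difference is drawn from them and the gene was not tested. A reading below the floor does not show that the transcript is missing from these cells.

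CLDN3, a sealing claudin, had an intensity of 169 on the array labelled KD hypoxia, 163 on WT hypoxia, 322 on KD normoxia and 225 on WT normoxia. Both hypoxia arrays were below both normoxia arrays and close to each other, and the KD normoxia array was the highest. CLDN3 had the widest range of the 8 readable genes, 0.92 on the log2 scale. Its hypoxia minus normoxia difference was -0.87 in the KD pair and -0.43 in the WT pair. In the KD pair 2.48% of the 9834 genes above the floor lay as far from 0.

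CLDN4, which in MDCK cells is known to lower sodium permeability, had an intensity of 207 on the array labelled KD hypoxia, 262 on WT hypoxia, 275 on KD normoxia and 251 on WT normoxia. The array labelled KD hypoxia stood below the other 3, which lay close together, and the oxygen labels overlapped. Hypoxia minus normoxia was -0.38 in the KD pair and 0.06 in the WT pair. CLDN4 is the next protein-coding gene to CLDN3 in the dog RefSeq annotation, with 0 others between them. CLDN3 was lower with labelled hypoxia in both pairs and CLDN4 in the KD pair, and the difference between these neighbours was not tested.

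CLDN7, a claudin also known along the basolateral membrane, had intensities of 4102, 4727, 4956 and 5119 on the arrays labelled KD hypoxia, WT hypoxia, KD normoxia and WT normoxia. Both hypoxia arrays were below both normoxia arrays, by little: the differences were -0.27 in the KD pair and -0.11 in the WT pair.

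OCLN had intensities of 1045, 1032, 1304 and 1211 on the arrays labelled KD hypoxia, WT hypoxia, KD normoxia and WT normoxia at its brighter probe set. At the dimmer one the intensities were 326, 437, 384 and 468 in the same order. The brighter probe set was lower on both hypoxia arrays, with differences of -0.31 in the KD pair and -0.23 in the WT pair. The dimmer one was lower within each pair too, by -0.23 and -0.10, but its oxygen labels overlapped. For the genotype label the probe sets disagreed: KD minus WT was 0.02 in hypoxia and 0.11 in normoxia at the brighter and -0.40 and -0.27 at the dimmer.

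MARVELD2 had an intensity of 80.2 on the array labelled KD hypoxia, 110.2 on WT hypoxia, 62.25 on KD normoxia and 62.9 on WT normoxia. The normoxia arrays were nearly equal and both hypoxia arrays were above them, WT hypoxia most. Hypoxia minus normoxia was 0.30 in the KD pair and 0.68 in the WT pair. MARVELD2 and OCLN are also next to each other in the dog annotation, with 0 protein-coding genes between, and their hypoxia minus normoxia differences had opposite signs in both pairs; the difference between the genes was not tested.

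F11R, an immunoglobulin-like adhesion molecule, had intensities of 91.8, 62.4, 83.7 and 58.9 on the arrays labelled KD hypoxia, WT hypoxia, KD normoxia and WT normoxia at its brighter probe set. Both KD arrays were above both WT arrays, by 0.46 in hypoxia and 0.41 in normoxia, while the oxygen labels overlapped. Its other probe set had 28.1, 38.9, 27.7 and 43.4 in the same order. These readings were below the floor on all 4 arrays and ran the other way, lower on both KD arrays.

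TJP1 had intensities of 3523, 2910, 4313 and 3396 on the arrays labelled KD hypoxia, WT hypoxia, KD normoxia and WT normoxia at its brighter probe set. Within each genotype the hypoxia array was lower, by -0.29 in KD and -0.22 in WT, and within each oxygen label the KD array was higher, by 0.27 and 0.34. The oxygen labels overlapped, since the array labelled KD hypoxia was above the one labelled WT normoxia. Its dimmer probe set had 123.8, 110.2, 128.7 and 115.3 in the same order. It had the same signs with smaller differences, -0.05 and -0.06 for hypoxia and 0.15 and 0.14 for KD. Over the 3 genes with 2 probe sets, 7 of 12 differences had the same sign at both.

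**Figure D1:**
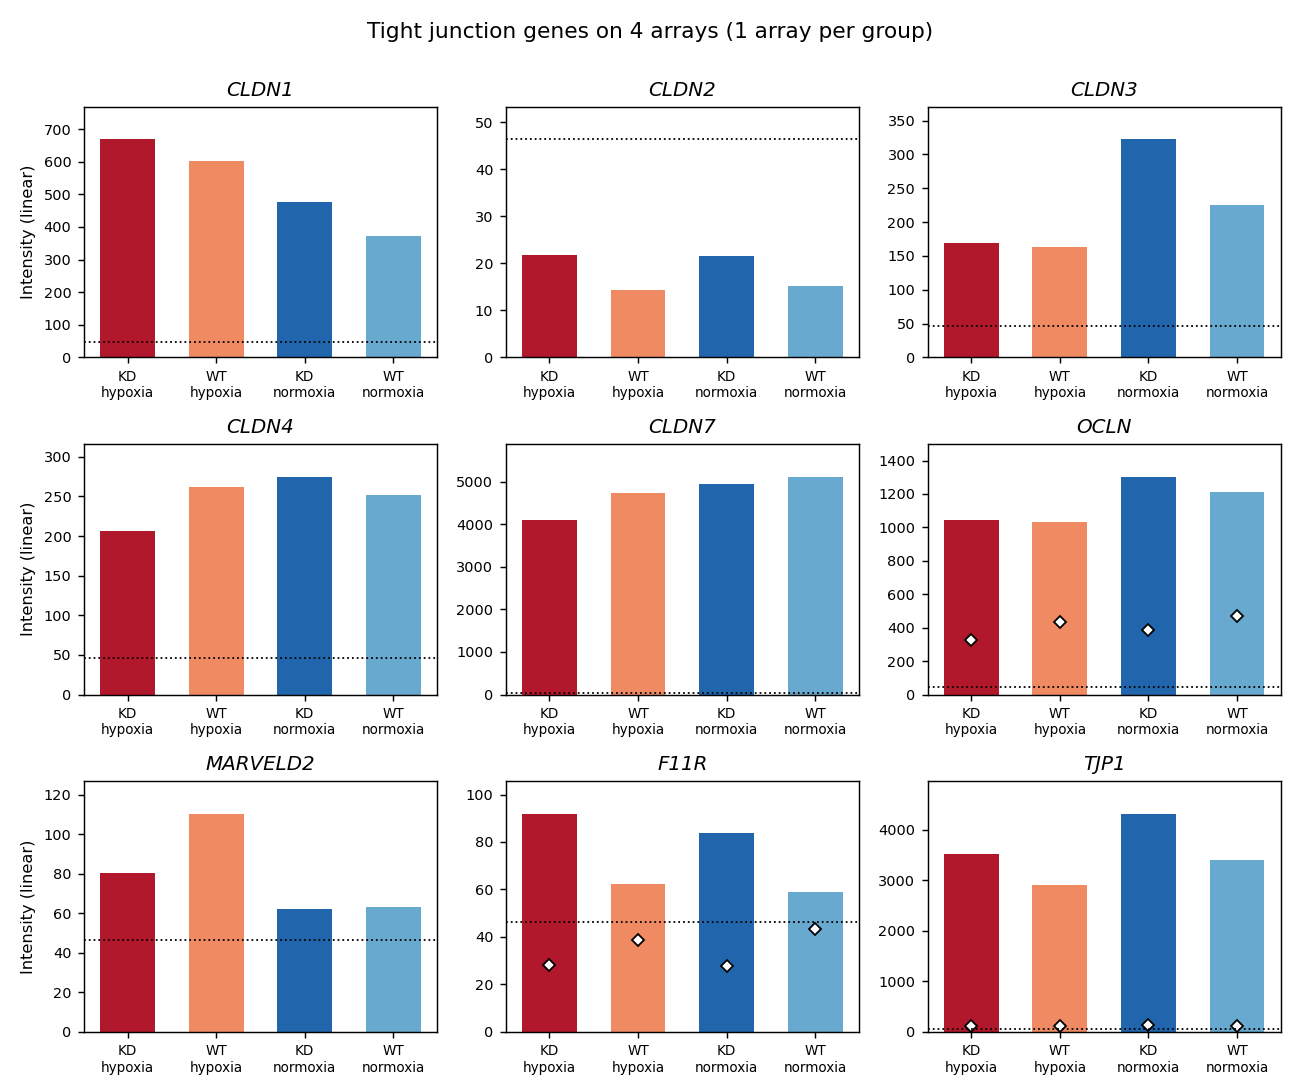
Deposited intensity (linear, vertical axis) of each of the 9 genes on the 4 arrays, with 1 bar per array and no error bars because each group is 1 array. Bars show the brighter probe set, diamonds the other one where there is one, and the dotted line the floor of 46.3. CLDN1 is higher and CLDN3 lower on both arrays labelled hypoxia, and all CLDN2 bars lie below the floor.

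In the KD pair, hypoxia minus normoxia, 0 of the 8 readable genes differed at least 2-fold, against 1.56% of all 9834 genes above the floor. At 1.5-fold 1 gene did, CLDN3, against 7.45% of all genes. Of the 8, 3 were higher (CLDN1, MARVELD2, F11R) and 5 lower, with a median difference of -0.28 against 0.016 over all genes above the floor. Their median size of difference was 0.306, against 0.186 over all genes. It was above that of all genes in the other pairs too: 0.225 against 0.159 for hypoxia minus normoxia in WT. For KD minus WT it was 0.239 against 0.16 in hypoxia and 0.233 against 0.171 in normoxia.

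The WT pair, hypoxia minus normoxia, held 0 of 8 at 2-fold, against 1.17% of all genes. At 1.5-fold there were 2, CLDN1 (0.67) and MARVELD2 (0.68), against 6.21% of all genes. Of the 8, 4 were higher and 4 lower, with a median of -0.03 against 0.014 over all genes. CLDN4, slightly higher here and lower in the KD pair, makes the change in these counts.

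For KD minus WT in hypoxia, 0 of 8 reached 2-fold, against 0.875% of all genes, and 0 of 8 reached 1.5-fold, against 5.33%. The values ran from -0.39 for MARVELD2 to 0.46 for F11R, with 5 higher and 3 lower. Their median was 0.03, against -0.0099 over all genes above the floor. In normoxia 0 of 8 reached 2-fold, against 1.18% of all genes, and 0 of 8 reached 1.5-fold, against 6.58%. There 6 were higher and 2 lower, from -0.05 for CLDN7 to 0.49 for CLDN3, with a median of 0.23 against -0.011 over all genes. OCLN and F11R count as higher in both pairs, but their second probe sets were lower on KD. In normoxia these gave -0.27 for OCLN and -0.44 for F11R, the latter below the floor. These pairs have 1 array a side, so none of the differences has a replicate check, and pairs that share an array are not independent.

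**Figure D2:**
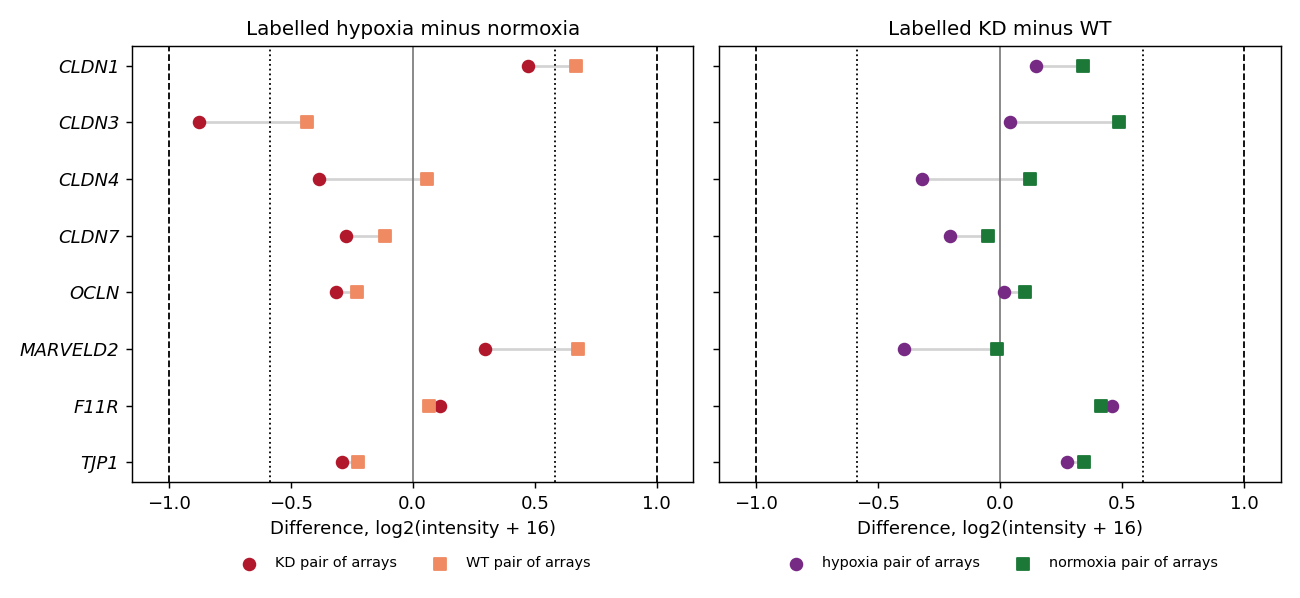
Difference between 2 arrays in log2(intensity + 16) (horizontal axis) for the 8 genes above the floor. The left panel gives labelled hypoxia minus normoxia in the KD pair (circles) and the WT pair (squares), and the right panel gives labelled KD minus WT in the hypoxia pair (circles) and the normoxia pair (squares). Dotted and dashed lines mark 1.5-fold and 2-fold. No point reaches 2-fold, and CLDN4 has points on both sides of 0 in both panels.

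The limma model used all 4 arrays, with 1 residual degree of freedom a gene and a spread shared across the 9834 genes, and p-values were adjusted over all of them (Benjamini-Hochberg, two-sided). It sets a difference against a spread that mixes the gap between the gene's own 2 pairs with that of genes of like intensity. The shared part weighs more, with 8.105 degrees of freedom against 1 for the gene's own gap. With quantile normalization the own gap had no weight. The model holds no replicate cultures. In its hypoxia term 1 of the 8 genes rose, against 4.72% of all genes, and 2 fell, against 4.17% of all genes. CLDN1 rose by 0.57 (SE 0.10, limma adjusted p = 0.00867), a 1.49-fold difference. CLDN3 fell by 0.65 (SE 0.13, limma adjusted p = 0.0173), 1.57-fold. TJP1 fell by 0.26 (SE 0.06, limma adjusted p = 0.0358), 1.19-fold.

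The other 5 tested genes did not pass in the hypoxia term. Their values were 0.49 for MARVELD2 (SE 0.18, limma adjusted p = 0.128), -0.27 for OCLN (SE 0.08, adjusted p = 0.0810) and -0.19 for CLDN7 (SE 0.06, adjusted p = 0.0901). CLDN4 was at -0.16 (SE 0.13, limma adjusted p = 0.511) and F11R at 0.09 (SE 0.17, adjusted p = 0.799). MARVELD2 had nearly the size of the CLDN1 difference with a wider error.

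In the KD term 1 of the 8 rose, against 2.94% of all genes, and 0 fell, against 2.43% of all genes. At an unadjusted limma p under 0.05 there were 3 of the 8, with 0 lower. Of all 9834 genes 2196 did so, of which 1137 were lower. After median centring of each array, 486 genes of the whole array rose and 255 fell in this term, against 289 and 239 without it. TJP1 rose by 0.31 (SE 0.06, limma adjusted p = 0.0250), 1.24-fold. F11R, at 0.44, had a larger difference with a larger error (SE 0.17, limma adjusted p = 0.170), and it was 0.03 with the median over its probe sets. CLDN3 (0.27, SE 0.13), CLDN1 (0.25, SE 0.10) and OCLN (0.06) did not pass, nor did CLDN4 (-0.10), CLDN7 (-0.13) and MARVELD2 (-0.20), with limma adjusted p-values between 0.190 and 0.715. With 8 genes, counts of 1 or 2 are described and no share is read from them. The calls of CLDN1, CLDN3 and TJP1 ended without the floor and without limma's intensity trend, and those of TJP1 also with the median over its probe sets.

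**Figure D3:**
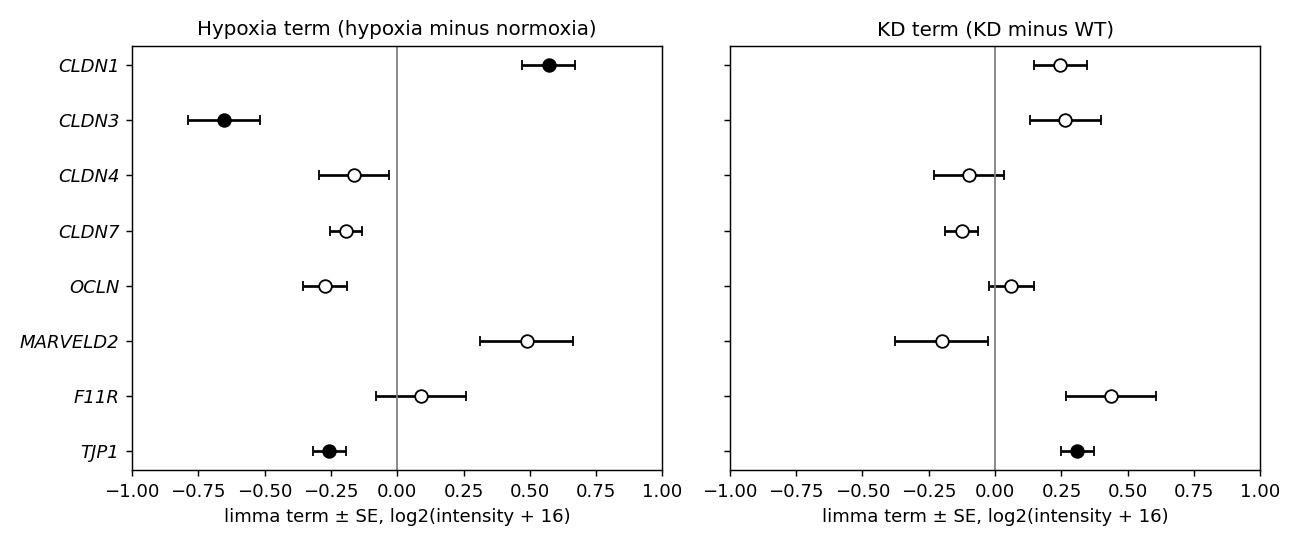
limma terms with SE bars (horizontal axis, log2(intensity + 16)) for the 8 tested genes, the hypoxia term on the left and the KD term on the right, each over 4 arrays. Filled points passed an adjusted p of 0.05: CLDN1, CLDN3 and TJP1 for hypoxia and TJP1 for KD.

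Among other tight junction genes, 3 lists held 54 genes, of which 46 were found by symbol and 32 were above the floor. None of 5 other claudins above the floor passed in either term. Of all genes, 4.72% rose and 4.17% fell with labelled hypoxia, and 2.94% and 2.43% with labelled KD. At an unadjusted limma p under 0.05 there were 0 of the 5, beside 2335 and 2196 of all 9834 genes in the 2 terms. CLDN16, a claudin of renal magnesium reabsorption, differed most in a pair, -1.04 for KD minus WT in hypoxia, where the array labelled KD hypoxia read 16.4, below the floor. Its KD term was -0.35 (SE 0.34, limma adjusted p = 0.591). CLDN17 and CLDN14, next by size of difference, had KD terms of 0.47 (SE 0.23) and -0.22 (SE 0.22), at intensities of 34.6 to 76.5 that straddled the floor. None of 8 other membrane proteins passed, with 1 at an unadjusted limma p under 0.05 in each term, beside the same figures for all genes. BVES, an adhesion protein with the largest differences of that list in a pair, had 43.0, 65.5, 85.0 and 37.5 on the arrays labelled KD hypoxia, WT hypoxia, KD normoxia and WT normoxia, on both sides of the floor with no order by either label. ILDR2 (angulin-3) was at 0.36 in the KD term (SE 0.19, limma adjusted p = 0.307). ILDR1 (angulin-2), which recruits tricellulin to cell corners, was at 0.32 in the KD term (SE 0.13, limma adjusted p = 0.193), and its second probe set differed in sign in the hypoxia pair. Of 19 other scaffold and plaque proteins 2 rose and 0 fell with labelled hypoxia, beside 4.72% and 4.17% of all genes. With labelled KD 0 rose and 4 fell, beside 2.94% and 2.43%. At an unadjusted limma p under 0.05 the scaffold counts were 4 higher and 1 lower for hypoxia, and 1 higher and 5 lower for KD. Of all 9834 genes 2335 and 2196 did so in the 2 terms, of which 1051 and 1137 were lower. Over the 46 genes found, the median difference was -0.154 and 0.0171 for hypoxia minus normoxia in the KD and WT pairs, and -0.0347 and 0.0798 for KD minus WT in hypoxia and normoxia. These medians take in the genes below the floor, whose differences are not readable. Over all 15115 genes, those below the floor included, they were 0.0079, 0.0088, -0.0079 and -0.0097 in the same order.

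The 4 scaffold genes that fell with labelled KD were AMOTL2, PATJ, CGN and PRKCI, while the scaffold gene TJP1 rose. AMOTL2, an angiomotin that binds actin at junctions, had intensities of 58.7, 137.3, 57.1 and 93.7 on the arrays labelled KD hypoxia, WT hypoxia, KD normoxia and WT normoxia and fell by 0.81 with labelled KD (SE 0.18, limma adjusted p = 0.0345), reaching 2-fold in the hypoxia pair. PATJ, of the Crumbs polarity complex, had 350, 485, 243 and 456 in the same order and fell by 0.66 (SE 0.12, limma adjusted p = 0.0187). CGN (cingulin), which binds zonula occludens proteins, had 1273, 1666, 1283 and 2048 and fell by 0.53 (SE 0.09, limma adjusted p = 0.0151). All 3 were lower on both KD arrays than on both WT arrays. Other probe sets did not all follow: the second one of CGN gave KD minus WT differences of 0.06 and -0.16, and 2 further ones of PATJ gave -0.60 and -0.43, and 0.30 and -0.05.

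PRKCI, the atypical protein kinase C of the Par polarity complex, had intensities of 1886, 2272, 1305 and 1818 on the arrays labelled KD hypoxia, WT hypoxia, KD normoxia and WT normoxia. It rose by 0.42 with labelled hypoxia (SE 0.08, limma adjusted p = 0.0131) and fell by 0.37 with labelled KD (SE 0.08, limma adjusted p = 0.0358). WWC1 (KIBRA), a binding partner of atypical protein kinase C, rose by 0.22 with labelled hypoxia (SE 0.05, limma adjusted p = 0.0318). CGN, PRKCI and WWC1 are named because they passed the test. PARD3B, a relative of the polarity protein PARD3, was at 0.69 in the KD term without passing (SE 0.20, limma adjusted p = 0.0790).

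Adherens junctions lie below tight junctions and join the cells through cadherins and catenins. Of 9 adherens junction genes above the floor, 1 rose (EPCAM, 0.23) and 3 fell with labelled hypoxia, beside 4.72% and 4.17% of all genes. The 3 were JUP (plakoglobin), by 0.33, CDH6, a kidney cadherin, by 0.32, and CTNNB1 (beta-catenin), by 0.21, with limma adjusted p-values of 0.0173, 0.0420 and 0.0394. JUP also rose by 0.36 with labelled KD (SE 0.07, limma adjusted p = 0.0204), so it had the signs of TJP1 in both terms. Its intensities were 2452, 1914, 3105 and 2401 on the arrays labelled KD hypoxia, WT hypoxia, KD normoxia and WT normoxia. A further CDH6 probe set was at 0.13 in the KD pair for hypoxia minus normoxia, opposite to the one tested. NECTIN2 (-0.49 in the hypoxia term) and CTNND1 (-0.31) had larger values than CTNNB1 and did not pass. CDH1, the main epithelial cadherin, was below the floor on all 4 arrays (41.1, 38.4, 17.8 and 33.8 in the same order).

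Of 18 junction regulators above the floor, 0 rose and 2 fell with labelled hypoxia, beside 4.72% and 4.17% of all genes. At an unadjusted limma p under 0.05 there were 2 higher and 4 lower, beside 2335 of all 9834 genes, of which 1051 were lower. With labelled KD 1 rose and 1 fell, beside 2.94% and 2.43% of all genes. SNAI2 (Slug), a transcription factor known to repress epithelial junction genes, had intensities of 690 on KD hypoxia and 306 on WT hypoxia, against 2335 on KD normoxia and 1317 on WT normoxia. It fell by 1.89 with labelled hypoxia (SE 0.10, limma adjusted p = 1.35e-05) and rose by 0.98 with labelled KD (SE 0.10, adjusted p = 0.00203). KLF5, an epithelial transcription factor, fell by 0.52 with labelled hypoxia (SE 0.07, limma adjusted p = 0.00171) and by 0.35 with labelled KD (SE 0.07, adjusted p = 0.0208). ZEB1, another repressor of epithelial genes, reached the floor on 1 array at each of 2 probe sets, 47.8 on KD normoxia at the one tested and 52.8 on WT normoxia at the other, so the probe sets had opposite KD minus WT signs in normoxia. Of the calls named here in the scaffold, adherens junction and regulator lists, the hypoxia call of SNAI2 alone held without the floor (limma adjusted p = 0.0213), and none held without the intensity trend. With the median over probe sets the KD calls of CGN (-0.29) and JUP (0.10) and the hypoxia calls of CDH6 (-0.08) and WWC1 (0.19) ended, and PATJ was below the floor.

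**Figure D4:**
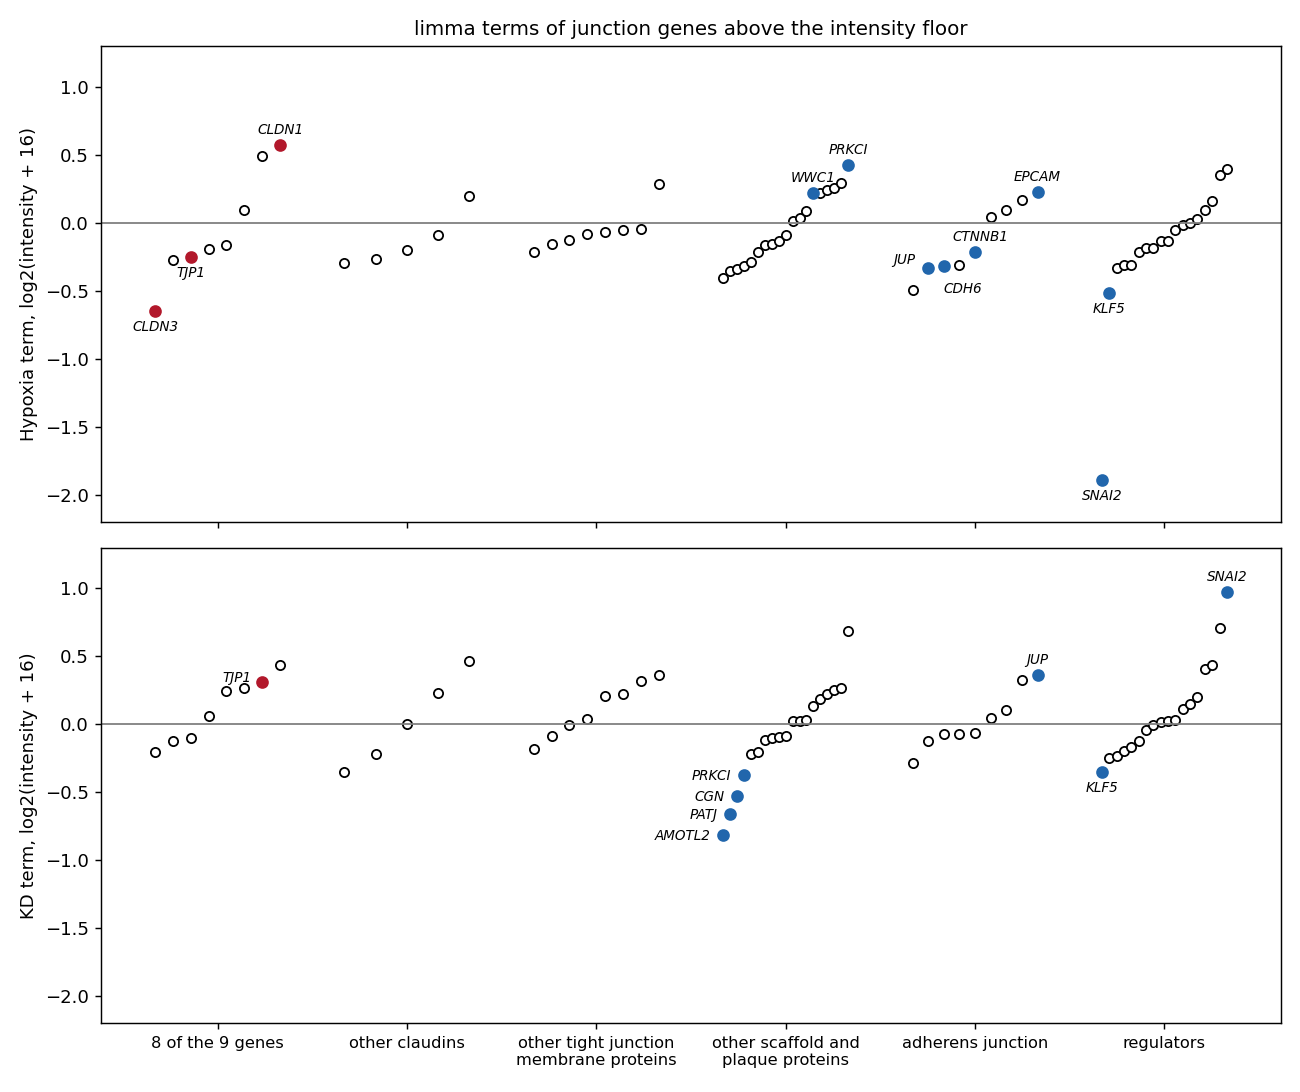
limma hypoxia term (upper panel) and KD term (lower panel), both in log2(intensity + 16), of the junction genes above the floor, with 1 point per gene sorted by value within each list and 4 arrays behind each point. Filled and named points passed an adjusted p of 0.05, in red for the genes described here and in blue for the other lists. SNAI2 lies farthest from 0 in both panels, and the 4 named scaffold and plaque genes of the lower panel are all below 0.

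The genes whose pattern over the 4 arrays was most like that of CLDN3 were found among 8283 genes above the floor on all 4 arrays. Likeness was the Euclidean distance between log2 values, each gene first centred on its own mean. EPDR1 was closest at 0.0947, followed by NXPE3 at 0.0980 and BBX at 0.103. NXPE3 had intensities of 905 on KD hypoxia and 882 on WT hypoxia, against 1693 on KD normoxia and 1293 on WT normoxia. Like CLDN3, the 3 genes were lowest on the 2 hypoxia arrays and highest on the array labelled KD normoxia, which follows from how they were chosen.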

How the data were processed

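The authors deposited 1 table of linear intensity values for 42924 probe sets on 4 Affymetrix arrays, from 100 ng of total RNA each with a 3' IVT kit, per the labels' protocols. The sources used here name neither software nor scaling. The means after trimming 2% at each end were 310.3 to 314.8. The platform table gave 1 symbol to 29254 probe sets, several to 439 and none to 13231. For each gene the probe set of highest mean was used. Deposited intensities became log2(intensity + 16) values. A gene was tested if its highest value reached the floor.

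Differences between 2 arrays have no test. limma 3.58.1 (R 4.3.3) fitted oxygen and genotype labels with an intensity trend, with calls at an adjusted p of 0.05; the code was tested on simulated data. Other junction genes were named where they were among the 3 of their list with the largest difference in a pair, reached 2-fold, or, chosen after their values were seen, passed limma. Of each marker list the 2 brightest were also named. A gene that the rule picks is not reported here. Likeness was sought for the gene with the widest range. The 9 genes and the lists were chosen with earlier results of these data known. Nothing says that the arrays came from separate cultures. The number of arrays limits the precision. Gene order came from the RefSeq annotation of the dog assembly UU_Cfam_GSD_1.0, and probe and protein sequences were not used here.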

Additional observations from a re-analysis of the deposited data

Results flagged for a closer look

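Of 34 named genes above the floor on all 4 arrays, 6 had opposite signs of a labelled difference in its 2 pairs, among them 1 of the 8 tight junction genes. The difference was not tested for any of them, since each group has 1 array. The share among all genes above the floor on all 4 arrays was not counted, so no excess or lack is read from these counts. Some of the named genes were chosen because they passed limma, which favours like signs in both pairs. Several differences are small, such as KD minus WT of 0.01 for KRT18 in hypoxia and for KDR in normoxia. Without replicates the sign of such a difference cannot be told from scatter. The value given is the hypoxia minus normoxia difference in KD minus that in WT, on the log2(intensity + 16) scale.

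CLDN4 was lower with labelled hypoxia in the KD pair (-0.38) and slightly higher in the WT pair (0.06), and its KD minus WT difference was -0.32 in hypoxia and 0.12 in normoxia. Its value was -0.442. The array labelled KD hypoxia stood below the other 3, and there is no second probe set. CD68, a leukocyte marker, had hypoxia minus normoxia differences of -0.07 in the KD pair and 0.04 in the WT pair, a value of -0.119. Its second probe set, above the floor on 3 arrays, gave -0.28 and -0.18 in the same order, with no change of sign.

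KRT18, a keratin of simple epithelia, had KD minus WT differences of 0.01 in hypoxia and -0.13 in normoxia, a value of 0.133. Its second probe set, above the floor on all 4 arrays, gave -0.08 and -0.40 in the same order, with no change of sign. CDH16, a kidney cadherin, had intensities of 159.3 on KD hypoxia against 158.55 on WT hypoxia, and 139.8 on KD normoxia against 155.8 on WT normoxia, a value of 0.147. KDR, an endothelial receptor, had KD minus WT differences of -0.09 in hypoxia and 0.01 in normoxia, a value of -0.107. EPDR1, the gene nearest to CLDN3 in pattern, had -0.02 and 0.37 in the same order, a value of -0.397.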

How the results depend on the processing

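The hypoxia terms of CLDN1 (0.523 to 0.588), CLDN3 (-0.698 to -0.541) and TJP1 (-0.283 to -0.155) kept their signs under all 12 alternatives, and so did the KD term of TJP1 (0.226 to 0.339). Settings that change only the floor or limma's trend leave a term as it is, so its sign there was fixed in advance. The same holds with every probe set as its own row, where the brighter one was read. For CLDN1 and CLDN3, with 1 probe set each, it also holds for the median over probe sets. CLDN1 and CLDN3 passed in 10 of 12, TJP1 in 9 of 12 for each term. For hypoxia 3 of the genes passed, against 5 with quantile normalization and 5 with cyclic loess, where OCLN and CLDN7 also passed. OCLN passed with a robust trend too (4 genes), and CLDN7 with the median over probe sets, where TJP1 did not, so each of these passed in 3 of 12. Without the floor 0 passed (limma, 6 at an unadjusted p under 0.05, beside 2300 of all 15115 genes), with adjusted p-values of 0.0946 for CLDN1, 0.175 for CLDN3 and 0.155 for TJP1. Without the intensity trend 0 passed (limma, 4 at an unadjusted p under 0.05, beside 1835 of all 9834 genes), with 0.161, 0.191 and 0.272. For KD, where 1 passed, 0 did with the median over probe sets, without the floor and without the trend. At an unadjusted limma p under 0.05 there were 4, 3 and 2, beside 1940, 2112 and 1733 of all genes tested. With the median over probe sets the OCLN KD term reversed to -0.139 (adjusted p = 0.425), since its probe sets disagree, and the F11R KD term moved to 0.03, with KD minus WT in normoxia at -0.0146 in place of 0.414. A 1.5-fold threshold gave 1 gene in the KD pair and 2 in the WT pair for hypoxia, against 0 at 2-fold. The median over the 9 genes for KD minus WT in normoxia, 0.272, was 0.113 with a pseudocount of 64, 0.123 with the median over probe sets and 0.131 with every probe set as its own row, and it is the value of CLDN2, below the floor. That for hypoxia in the KD pair, -0.272, was -0.137 with every probe set as its own row.

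Over all genes 464 rose and 410 fell for hypoxia, against 742 and 775 with quantile normalization, 853 and 800 with every probe set, 39 and 38 without the floor and 3 and 4 without the trend. For KD 289 rose and 239 fell, against 703 and 608, 706 and 729, 0 and 0, and 0 and 0 under the same settings (2112 and 1733 genes at an unadjusted limma p under 0.05 in the last 2), 553 and 379 with cyclic loess and 421 and 399 with a robust trend. For hypoxia 575 rose and 638 fell with cyclic loess, and 596 and 528 with a robust trend. No paired analysis was possible because each group has 1 array and the labels give no replicate numbers; the limma model itself takes each oxygen difference within a genotype label. Leaving out an array leaves no residual degrees of freedom, so it could not be fitted. Readings near or below the floor, as of CLDN2, F11R and MARVELD2, limit what their differences show.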
